A study of Mus musculus with 13 samples.

Results

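Complexes II to V of the respiratory chain were examined as the nuclear genes of their subunits in mouse quadriceps muscle. Members were taken by gene name: names of the Sdha to Sdhd genes (complex II), Uqcr and Cyc1 (complex III), Cox4 to Cox8 (complex IV) and Atp5 (complex V, the ATP synthase), without names marked as pseudogenes. Of 48 such names, 46 stood at 1 TPM or more in at least 3 of 13 libraries, and the other two, Cox7b2 and Cox8c, were listed at 0 TPM in every library. TPM is the number of transcripts of a gene in every 1000000 transcripts of a library, corrected for transcript length, so levels can be compared between genes. The 46 members were drawn from 24015 genes in the table, of which 11876 passed the same level filter and were tested. Complex II had 4 members, complex III 9, complex IV 16 and complex V 17. Cox7a2l, a factor that joins respiratory complexes into larger assemblies, and Atp5s and Atp5sl, which are not core subunits of the ATP synthase, entered by their names. The genes of the mitochondrial genome, which encode the catalytic core of complex IV and further subunits of complexes III and V, were not analysed here.

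Complex II, succinate dehydrogenase, passes electrons from succinate to ubiquinone and is also an enzyme of the citric acid cycle. Complex III passes them on to cytochrome c, complex IV passes them to oxygen, and complexes III and IV pump protons across the inner mitochondrial membrane. Complex V uses the returning protons to make ATP, and muscle fibres with a high oxidative capacity are rich in all of these complexes.

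The libraries came from C57BL/6 mice injected intraperitoneally each day for 4 weeks. All vehicle mice received a mixture of ethanol, Cremophor EL and dextrose in water. In batch 1, young mice (3 months) gave 4 libraries (replicates 1, 3, 4 and 5) and aged mice (over 24 months) gave 3 (replicates 2, 3 and 4), all on vehicle. In batch 2, aged mice gave 3 libraries on vehicle (replicates 2, 3 and 8) and 3 on SW033291 (replicates 1, 4 and 6), which inhibits 15-PGDH, an enzyme that breaks down prostaglandins, at 5 mg/kg. Neither sex nor the origin of each library from a separate animal is given in the labels, so the spread behind each p-value is that of these samples and may be technical. The age comparison lay within batch 1 and the SW033291 comparison within batch 2, and both batches met only in aged vehicle muscle.

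Whole muscle was lysed, and libraries differed in other cell types. The summed TPM of 5 skeletal muscle markers was 75246 to 95512 in the other libraries and 58316 in aged vehicle batch 1 replicate 4. That library also had the highest sums of 8 neutrophil markers (1723 TPM) and 8 red cell markers (3760 TPM), followed by aged vehicle batch 2 replicate 2 (750 and 2181 TPM). Transcripts of 7 adipocyte markers summed to 3039 TPM in young replicate 1, 2022 in young replicate 3 and 3513 in SW033291 replicate 1, against 521 to 1236 in the other libraries. Markers of slow and oxidative fibres summed to 1354 and 1103 TPM in aged vehicle batch 2 replicates 2 and 3 and to 1330 TPM in SW033291 replicate 4, against 145 to 882 elsewhere. In whole muscle, fewer cells of a type and less RNA per cell cannot be told apart. Sequencing depth is unknown, since TPM keep no record of it.

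The members were among the most abundant transcripts of the muscle. Together they took 4.31% to 5.07% of all TPM, and 25 of the 46 had a mean of 1000 TPM or more over the 13 libraries. The median of these means was 539 TPM for complex II, 1003 for complex III, 1094 for complex IV and 1060 for complex V. Thus complex II transcripts were the least abundant, and the other complexes had like medians. The highest member was Atp5b, the catalytic beta subunit of the ATP synthase, with a mean of 2866 TPM, followed by Cox8b (2339 TPM) and Cox6a2 (2139 TPM), muscle isoforms of complex IV subunits. Only 5 members had a mean under 100 TPM, namely Cox6b2, a testis isoform (1.05 TPM), Cox4i2, an isoform known from lung (4.63 TPM), Atp5s (17.3 TPM), Atp5sl (36.2 TPM) and Cox6a1 (77.9 TPM). Within groups, the 41 members at 100 TPM or more had a median SD of 0.117 on the log2 scale, against 0.159 for 1056 other genes at that level, given as a description.

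In complex II, the mean over 13 libraries was 689 TPM for Sdha, the flavoprotein that oxidises succinate, and 741 TPM for its iron-sulfur partner Sdhb. It was 388 and 369 TPM for the membrane anchors Sdhc and Sdhd. In complex III, the core protein genes Uqcrc1 and Uqcrc2 stood at 807 and 476 TPM, the Rieske iron-sulfur protein Uqcrfs1 at 652 TPM and cytochrome c1, encoded by Cyc1, at 622 TPM. All small subunits of complex III were higher than these, from 1003 TPM for Uqcrq to 1387 TPM for Uqcrb. In complex IV, Cox4i1 and Cox5a, which bind the catalytic core, had means of 1607 and 1387 TPM, and Cox5b 1053 TPM. In complex V, Atp5a1, the alpha subunit of the F1 head, had 1782 TPM. The c subunit of the rotor ring is encoded by Atp5g1, Atp5g2 and Atp5g3, whose means were 995, 639 and 1560 TPM.

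**Figure D1:**
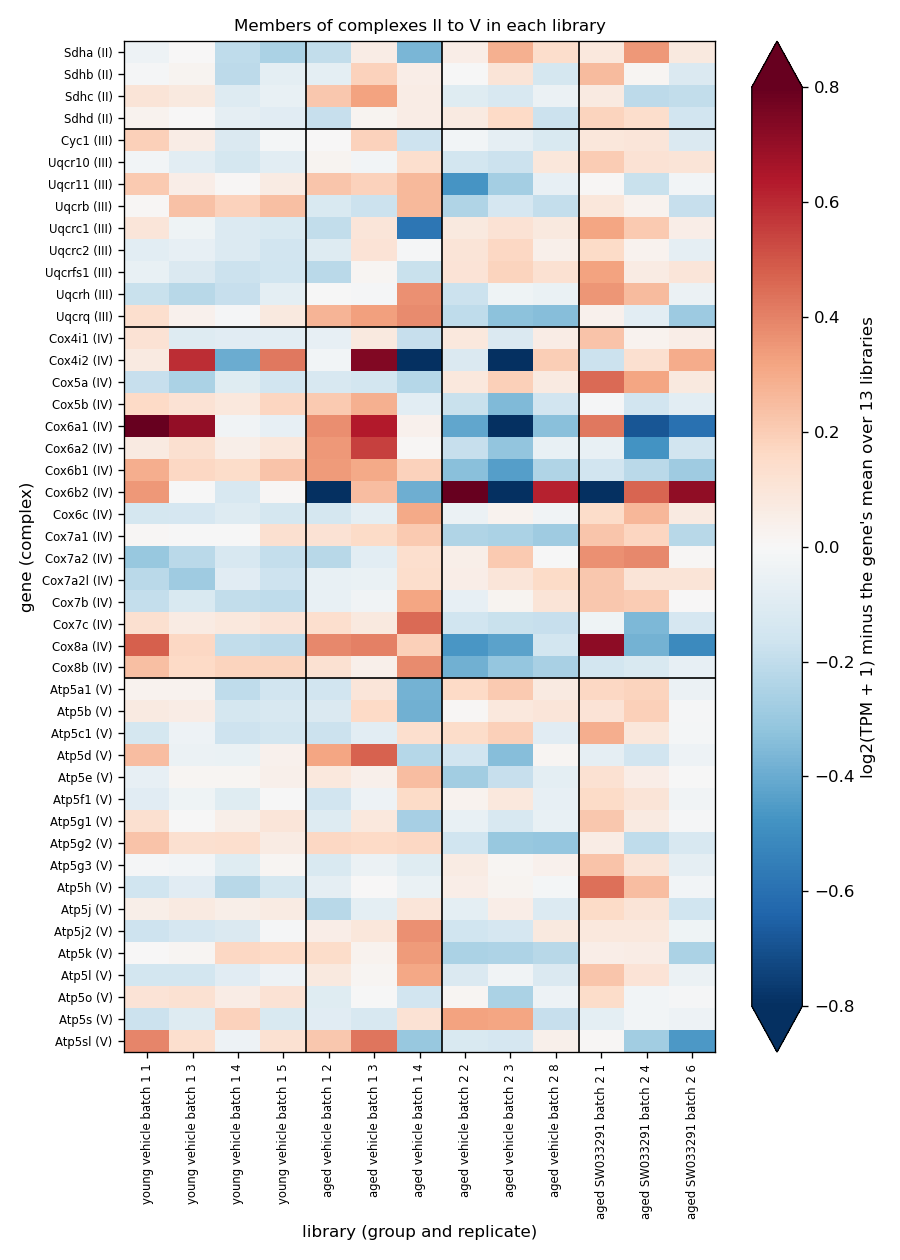
Each row is a member, grouped by complex, and each column a library, with its replicate number after the group; colour gives log2(TPM + 1) minus the mean of that gene over the 13 libraries. Cox6a1 and Cox8a, and the low-level Cox4i2 and Cox6b2, vary most between libraries, and several complex III and IV genes are low in the 3 vehicle libraries of batch 2.

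Promoter sequences are shown for Cox7a1 and Cox8b, muscle isoforms of complex IV subunits, beside their partners Cox7a2 and Cox8a, and for Cox6a1 and Sdhd, whose windows held matches to sites known from respiratory genes. RefSeq windows on GRCm38.p6, of 300 bases each, were matched by symbol for 36 of the 46 members (40 windows). They were searched on both strands for a site of NRF1, a factor known to act on respiratory genes (GCGCA and GCGC with any base between them), for the core of an ETS site as bound by GABP (CCGGAAG), for a YY1 site (AAGATGGCG) and for an E box as bound by myogenic factors (CAGCTG). The NRF1 letters stood in 25% of member windows and 4.60% of all 32851 windows, the ETS letters in 30% against 8.86%, and the YY1 letters in 10% against 1.40%. The E box stood in 5% of member windows, those of Atp5b and Cox8b, against 16.3%. Member windows held a median of 19 CG pairs, all windows 7. The windows of the muscle isoform genes Cox7a1 and Cox8b held 7 and 2 CG pairs, and those of their widely expressed partners Cox7a2 and Cox8a held 20 and 19. Each sequence gives the 250 bases before the start, 5′ to 3′ on the gene's strand, with matches in capitals.

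Cox7a1, chr7:30183921-30184170, strand plus: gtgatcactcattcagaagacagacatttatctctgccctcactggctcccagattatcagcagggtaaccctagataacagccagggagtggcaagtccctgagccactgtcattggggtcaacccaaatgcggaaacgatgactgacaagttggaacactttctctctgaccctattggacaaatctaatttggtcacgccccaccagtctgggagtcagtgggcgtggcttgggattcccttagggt
Cox8b, chr7:140900447-140900696, strand minus: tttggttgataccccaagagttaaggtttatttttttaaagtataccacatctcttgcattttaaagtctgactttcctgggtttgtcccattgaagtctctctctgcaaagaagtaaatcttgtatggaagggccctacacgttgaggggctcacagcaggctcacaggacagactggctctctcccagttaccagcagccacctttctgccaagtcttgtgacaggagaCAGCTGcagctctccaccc
Cox7a2, chr9:79759854-79760103, strand minus: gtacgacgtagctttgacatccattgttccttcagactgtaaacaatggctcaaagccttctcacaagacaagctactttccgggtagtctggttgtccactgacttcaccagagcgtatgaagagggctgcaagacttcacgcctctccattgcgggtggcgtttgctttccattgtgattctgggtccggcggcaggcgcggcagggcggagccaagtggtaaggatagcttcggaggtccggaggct
Cox8a, chr19:7217617-7217866, strand minus: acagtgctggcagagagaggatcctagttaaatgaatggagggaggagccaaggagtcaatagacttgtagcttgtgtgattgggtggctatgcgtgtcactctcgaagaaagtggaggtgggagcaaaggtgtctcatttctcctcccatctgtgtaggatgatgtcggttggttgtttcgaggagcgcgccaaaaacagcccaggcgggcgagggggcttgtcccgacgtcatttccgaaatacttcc
Cox6a1, chr5:115348959-115349208, strand minus: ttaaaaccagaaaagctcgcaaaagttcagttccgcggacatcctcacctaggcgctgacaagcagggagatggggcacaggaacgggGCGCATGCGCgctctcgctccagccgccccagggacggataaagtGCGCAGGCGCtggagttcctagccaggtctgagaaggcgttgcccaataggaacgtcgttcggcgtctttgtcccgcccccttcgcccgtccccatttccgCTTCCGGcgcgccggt
Sdhd, chr9:50603850-50604099, strand minus: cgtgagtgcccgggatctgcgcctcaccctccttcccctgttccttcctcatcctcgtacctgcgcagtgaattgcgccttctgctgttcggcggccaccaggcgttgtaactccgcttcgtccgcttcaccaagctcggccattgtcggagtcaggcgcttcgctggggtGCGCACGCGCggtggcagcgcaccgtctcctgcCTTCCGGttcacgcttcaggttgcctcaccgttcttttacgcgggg

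In the printed bases, Cox8b held an E box that began 19 bases before the start. Cox6a1 held NRF1 matches that began 162 and 117 bases before the start and an ETS match at 16 bases. Sdhd held an NRF1 match at 79 bases and an ETS match at 46 bases. The printed bases of Cox7a1, Cox7a2 and Cox8a held none of these letters in full. The 300-base window of Cox8a did hold an ETS match, which was not wholly within the 250 printed bases. A match is a description of the letters and was not tested as a binding site.

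Isoforms of complex IV subunits were present in very unequal amounts, as is known for skeletal muscle. Cox6a2, the heart and muscle isoform, had 1514 to 3074 TPM, and its partner Cox6a1 had 37.8 to 133 TPM. The ratio of their TPM was 24.7 ± 7.87 (SD, n = 4) in young muscle, 28.1 ± 0.788 (SD, n = 3) in aged vehicle batch 1, 38.1 ± 5.76 in aged vehicle batch 2 and 31.5 ± 9.72 with SW033291. Cox8b to Cox8a had ratios of 22.8 ± 4.73, 18.7 ± 3.97, 20.9 ± 1.78 and 21.2 ± 8.87 in the same order. Cox7a1 to Cox7a2 had lower ratios, 4.28 ± 0.270, 4.22 ± 0.386, 2.85 ± 0.198 and 3.16 ± 0.0990. All 7 batch 1 libraries had a Cox7a1 to Cox7a2 ratio of 3.81 or more, and all 6 batch 2 libraries one of 3.27 or less. Atp5g2 to Atp5g3 in complex V split in the same way, with ratios of 0.421 to 0.495 in batch 1 and 0.321 to 0.391 in batch 2. For Atp5g2, 2 near-identical pseudogene transcripts make the counting uncertain. In the authors' deposited table of SW033291 against vehicle, its mean of normalised counts was 148, against 1821 for Atp5g3. Their coding lengths were 438 and 423 nucleotides.

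With SW033291, the Cox7a1 to Cox7a2 ratio was 3.27, 3.12 and 3.09 in replicates 1, 4 and 6, above the vehicle values of 2.97, 2.62 and 2.97. The log2 ratio differed by 0.15 (SE 0.064), with an exact two-sided permutation p of 0.1 and an adjusted p of 0.35 over 7 pairs. Atp5g1 to Atp5g3 also had groups that did not overlap, with a log2 ratio higher by 0.13 with SW033291 (SE 0.031) and the same exact p and adjusted p. Between batches in aged vehicle muscle the log2 ratio of Cox7a1 to Cox7a2 differed by -0.56 (SE 0.097, batch 2 lower), and that of Atp5g2 to Atp5g3 differed by -0.55 (SE 0.041). Cox6a2 to Cox6a1 differed in the other direction, by 0.42 (SE 0.120), and for all 3 pairs the groups did not overlap and the exact p was 0.1. Groups of 3 against 3 allow no permutation p under 0.1, and the lowest adjusted p over the 7 pairs was 0.233, in the batch comparison. With age no pair had groups that did not overlap, and the lowest exact p was 0.171, for Cox6b1 to Cox6b2.

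**Figure D2:**
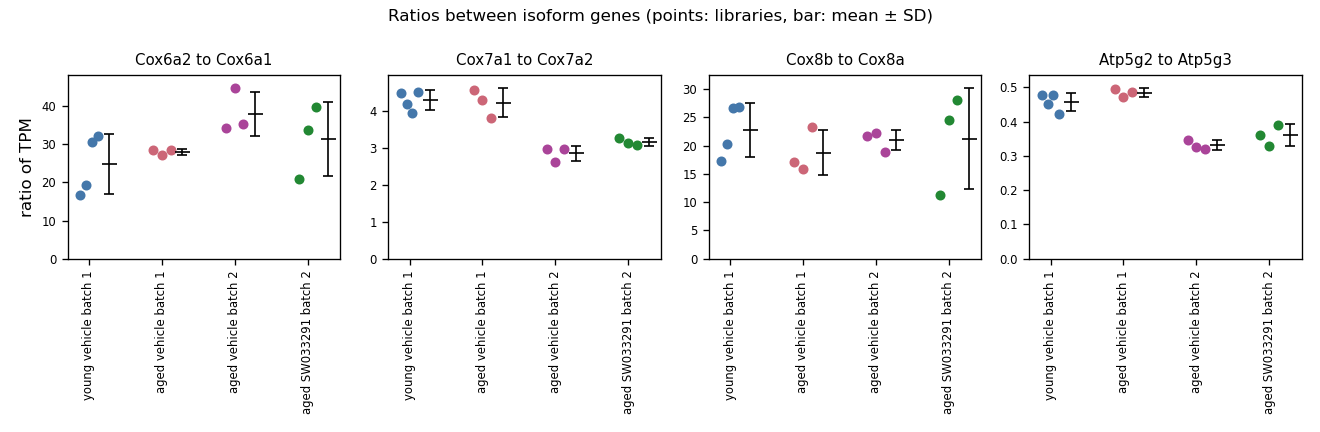
Ratios of TPM between isoform genes (vertical axes) in each library (points) by group, with the mean and SD as a bar; n is 4 for young and 3 for each other group. The Cox7a1 to Cox7a2 and Atp5g2 to Atp5g3 ratios of all batch 2 libraries lie below all batch 1 libraries. Near-identical pseudogene transcripts make the counting of Atp5g2 uncertain.

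Cox6a1 and Cox8a differed widely between libraries of one group. Cox6a1 had 133, 119, 71.2 and 69.3 TPM in young replicates 1, 3, 4 and 5, and Cox8a had 158, 127, 98.3 and 97.5 TPM. With SW033291, Cox6a1 had 97.4, 44.7 and 47.6 TPM and Cox8a 186, 86.5 and 79.0 TPM in replicates 1, 4 and 6. In aged vehicle batch 1, replicates 2, 3 and 4 had 94.2, 113 and 74.3 TPM of Cox6a1 and 148, 150 and 129 TPM of Cox8a, and in batch 2, replicates 2, 3 and 8 had 54.1, 37.8 and 57.2 TPM and 81.5, 83.9 and 102 TPM. Both genes had their highest value of the group in young replicate 1, aged vehicle batch 1 replicate 3, aged vehicle batch 2 replicate 8 and SW033291 replicate 1. The sums of adipocyte markers in these libraries were 3039, 1236, 749 and 3513 TPM, each the highest of its group. The part of fat tissue RNA in these levels was not tested.

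Aged and young vehicle muscle of batch 1 were compared to ask whether transcripts of these complexes differ with age. No member passed the test: in limma, adjusted by Benjamini-Hochberg over 11876 genes, 0 of 46 members were called at an adjusted p of 0.05, against 0.455% of all genes. At an unadjusted p under 0.05 there were 7 members (15.2%, against 9.92% of all genes), 6 higher and 1 lower in aged muscle. Without young replicate 3 there were 4, and the share of all genes was not computed for that set. Young and aged libraries did not overlap for 8 members that were higher (17.4%, against 8.85% of all genes) and 1 that was lower (2.17% against 2.70%). The median log2 difference was 0.05 over the members and 0.06 over all genes tested, with 28 members positive (60.9%, against 61.2% of all genes) and 18 negative. The sign of the members' median depended on the scaling, with -0.02 under median-of-ratios scaling, -0.05 under quantile normalization and -0.04 without the 20 most abundant other genes. The median of all genes also moved, to -0.001, -0.005 and -0.025 in the same order. Members minus all genes was then -0.017, -0.044 and -0.019, beside -0.0075 in the main fit.

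The 10 members with the lowest p in the age comparison came from all 4 complexes. Uqcrq, a small complex III subunit, had 1086, 1013, 983 and 1047 TPM in the young libraries and 1195, 1245 and 1287 TPM in the aged ones. The groups did not overlap, and the log2 difference was 0.27 (SE 0.087, limma adjusted p = 0.242). Uqcrh, the hinge protein of complex III, had 1003 to 1106 TPM in young and 1158 to 1504 TPM in aged muscle (log2 difference 0.28, SE 0.112), with the highest value in aged replicate 4. Atp5j2 and Atp5l, the f and g subunits of the membrane part of the ATP synthase, had log2 differences of 0.28 (SE 0.095) and 0.24 (SE 0.090), and Cox7b, a small complex IV subunit, one of 0.26 (SE 0.0996). Near-identical pseudogene transcripts, 8 for Atp5l and 2 for Cox7b, make the counting of both uncertain. Uqcrh, Atp5j2, Atp5l and Cox7b were each highest in aged replicate 4, and without that library their log2 differences were 0.16, 0.18, 0.15 and 0.14. Cox7a2l differed by 0.20, Sdhc by 0.19 and Cox6a2 by 0.22, of which Sdhc and Cox6a2 had overlapping groups. Cox7a2l was also highest in aged replicate 4, and its difference was 0.13 without that library. Without aged replicate 3 the difference of Cox6a2 was 0.09, and without aged replicate 4 it was 0.36.

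In the other direction, Atp5o, which encodes the stalk subunit OSCP of the ATP synthase, had 1267, 1276, 1222 and 1270 TPM in young and 1096, 1171 and 1055 TPM in aged muscle. Its groups did not overlap, and the log2 difference was -0.19 (SE 0.084, limma adjusted p = 0.486). Atp5g1 differed by -0.16 (SE 0.091), with aged replicate 3 within the young range, by -0.25 without that library and by -0.08 without aged replicate 4. In the authors' deposited table of aged against young muscle, 3 of the 46 members were listed, all lower: Atp5o at -0.32, Uqcrb at -0.38 and Atp5j, coupling factor 6, at -0.23, with the authors' adjusted p of 0.075, 0.079 and 0.033. That table lists 6.37% of the genes tested here, 2.44% as lower. The libraries behind the authors' deposited table are not stated and may include aged libraries of batch 2, so its values and those of batch 1 alone may rest on different samples. In the TPM of batch 1, Uqcrb had 1383 to 1623 TPM in young libraries and 1262, 1222 and 1648 TPM in aged ones (log2 difference -0.18, SE 0.111), so replicate 4 stood apart from replicates 2 and 3.

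As a share of all TPM, the members took 4.69%, 4.61%, 4.49% and 4.61% in young and 4.66%, 4.91% and 4.87% in aged muscle of batch 1, with overlap. Complex IV alone took 1.60% ± 0.0283 (SD, n = 4) in young and 1.71% ± 0.0360 (SD, n = 3) in aged libraries, which did not overlap. Shares of complexes II, III and V overlapped. With the 20 most abundant other genes out of the total, the difference in the share of all members was -0.187 percentage points in place of 0.212. Against the aged vehicle libraries of batch 2, age cannot be told apart from batch. Then 10 members were called (21.7%, against 14.1% of all genes), 1 higher and 9 lower (19.6%, against 1.94% lower). Uqcrq then differed by -0.35.

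**Figure D3:**
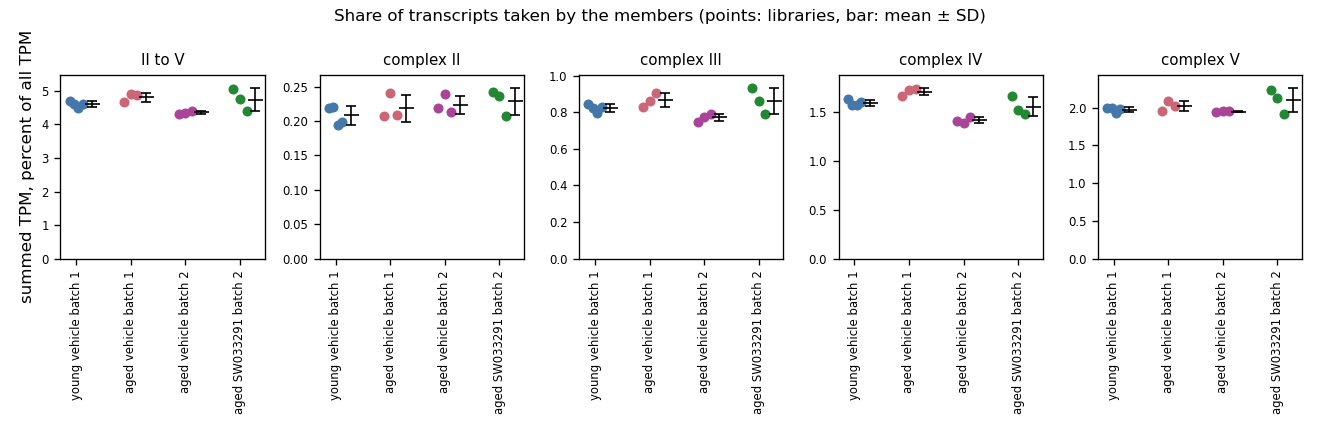
Summed TPM of the members as a percent of all TPM (vertical axes, from 0), for all 46 members and for each complex; points are libraries and bars the mean and SD. The 3 vehicle libraries of batch 2 take 4.31% to 4.41%, below all other libraries but SW033291 replicate 6 at 4.40%.

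The comparison of SW033291 with vehicle in aged muscle asks whether the inhibitor moves these transcripts. No member was called, nor was any other gene (0% of 11876 genes, limma). At an unadjusted p under 0.05, 5 members were higher and none was lower (10.9%, against 10.3% of all genes in either direction). This count was 0 without SW033291 replicate 1, 10 without replicate 6, 1 without vehicle replicate 2 and 2 without vehicle replicate 3. The share of all genes at that p was not computed without these libraries. Log2 differences were positive for 38 of 46 members (82.6%), against 28.9% of all genes tested, and the median was 0.12 over members and -0.13 over all genes. The members' median stayed positive under each scaling, from 0.09 under quantile normalization to 0.27 under median-of-ratios scaling. That scaling moved the median of all genes by 0.13 in this comparison and by -0.12 between batches. It left 0 members called (0% of all genes), with 24 (52.2%) at an unadjusted p under 0.05. For that scaling the share of all genes at this p was not computed, so an excess among members cannot be read from it.

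The treated libraries were not alike. Cox7a1 had 1656 and 1602 TPM in SW033291 replicates 1 and 4 but 1218 TPM in replicate 6, next to 1202, 1190 and 1164 TPM with vehicle. Its log2 difference was 0.32 (SE 0.106, limma adjusted p = 0.418), the lowest p of any member. Atp5e, the epsilon subunit of the F1 part of the ATP synthase, had 1960, 1868 and 1802 TPM against 1485, 1584 and 1704 TPM (log2 difference 0.24, SE 0.086, limma adjusted p = 0.418). Uqcr10, a small complex III subunit, had 1302, 1226 and 1217 TPM against 1020, 1005 and 1202 TPM, and Cox8b had 2085, 2121 and 2211 TPM against 1770, 1862 and 1927 TPM. For these members every treated library lay above every vehicle library, in Cox7a1 and Uqcr10 by a narrow margin in replicate 6.

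Groups did not overlap for 7 members, all higher with SW033291 (15.2%, against 1.95% of all genes): Cox7a1, Atp5e, Uqcr10, Cox8b, Cox5b, Cox6c and Atp5g1. None was lower without overlap, against 15.1% of all genes. In Cox5b the groups almost touched, with 939.4 TPM in SW033291 replicate 4 and 938.2 TPM in vehicle replicate 8. Uqcrh had 1493, 1393 and 1129 TPM with SW033291 and 1038, 1141 and 1126 TPM with vehicle, so replicate 6 lay within the vehicle range (log2 difference 0.27, SE 0.120). Uqcr11, Atp5h, Uqcrq, Atp5l and Atp5g2 followed, with log2 differences of 0.21, 0.20, 0.18, 0.18 and 0.17 and overlapping groups. Without SW033291 replicate 1, those of Atp5h, Uqcrq, Atp5l and Atp5g2 were 0.09, 0.10, 0.12 and 0.09, without SW033291 replicate 6 that of Atp5h was 0.32, and without vehicle replicate 2 that of Uqcr11 was 0.11. In complex II, Sdha, Sdhb, Sdhc and Sdhd had log2 differences of 0.01, 0.07, -0.02 and 0.04. In the F1 part of the ATP synthase, Atp5a1, Atp5b, Atp5c1 and Atp5d had -0.05, 0.03, 0.04 and 0.07, and Atp5e the 0.24 given above. Members of complex II had a median of 0.02, of complex III 0.17, of complex IV 0.16 and of complex V 0.08.

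The members took 5.07%, 4.75% and 4.40% of all TPM with SW033291 (mean 4.74% ± 0.333, SD, n = 3) and 4.31%, 4.35% and 4.41% with vehicle (4.36% ± 0.0463, SD, n = 3). Treated replicates 1 and 4 lay above the vehicle libraries and replicate 6 within their range. Groups did not overlap for complex III, at means of 0.861% against 0.772%, or for complex IV, at 1.56% against 1.42%. For complex III the groups almost touched, with 0.7923% in SW033291 replicate 6 and 0.7907% in vehicle replicate 8. For complex IV the same libraries had 1.483% and 1.451%. The difference over all members was 0.384 percentage points, 0.221 without SW033291 replicate 1 and 0.892 with the 20 most abundant other genes out of the total. In the authors' deposited table of SW033291 against vehicle, which rests on normalised counts, 44 of 46 members had a positive log2 change, against 49.5% of the tested genes it lists. There 19 members had an unadjusted p under 0.05 and a higher level (1.60% of those genes) and none a lower one (2.15%). After a Benjamini-Hochberg adjustment of the p-values of the authors' deposited table over its 16666 genes with a p, no member passed, and 1 gene did. The median change of the members in the authors' deposited table was 0.27, beside -0.0028 for those genes. Atp5l stood at -0.01 there and at 0.18 in the TPM, and 8 pseudogene transcripts nearly identical to it could share its reads. The part of shared reads in this gap was not tested. The authors' deposited table and the TPM belong to the same series and are no independent evidence of each other.

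**Figure D4:**
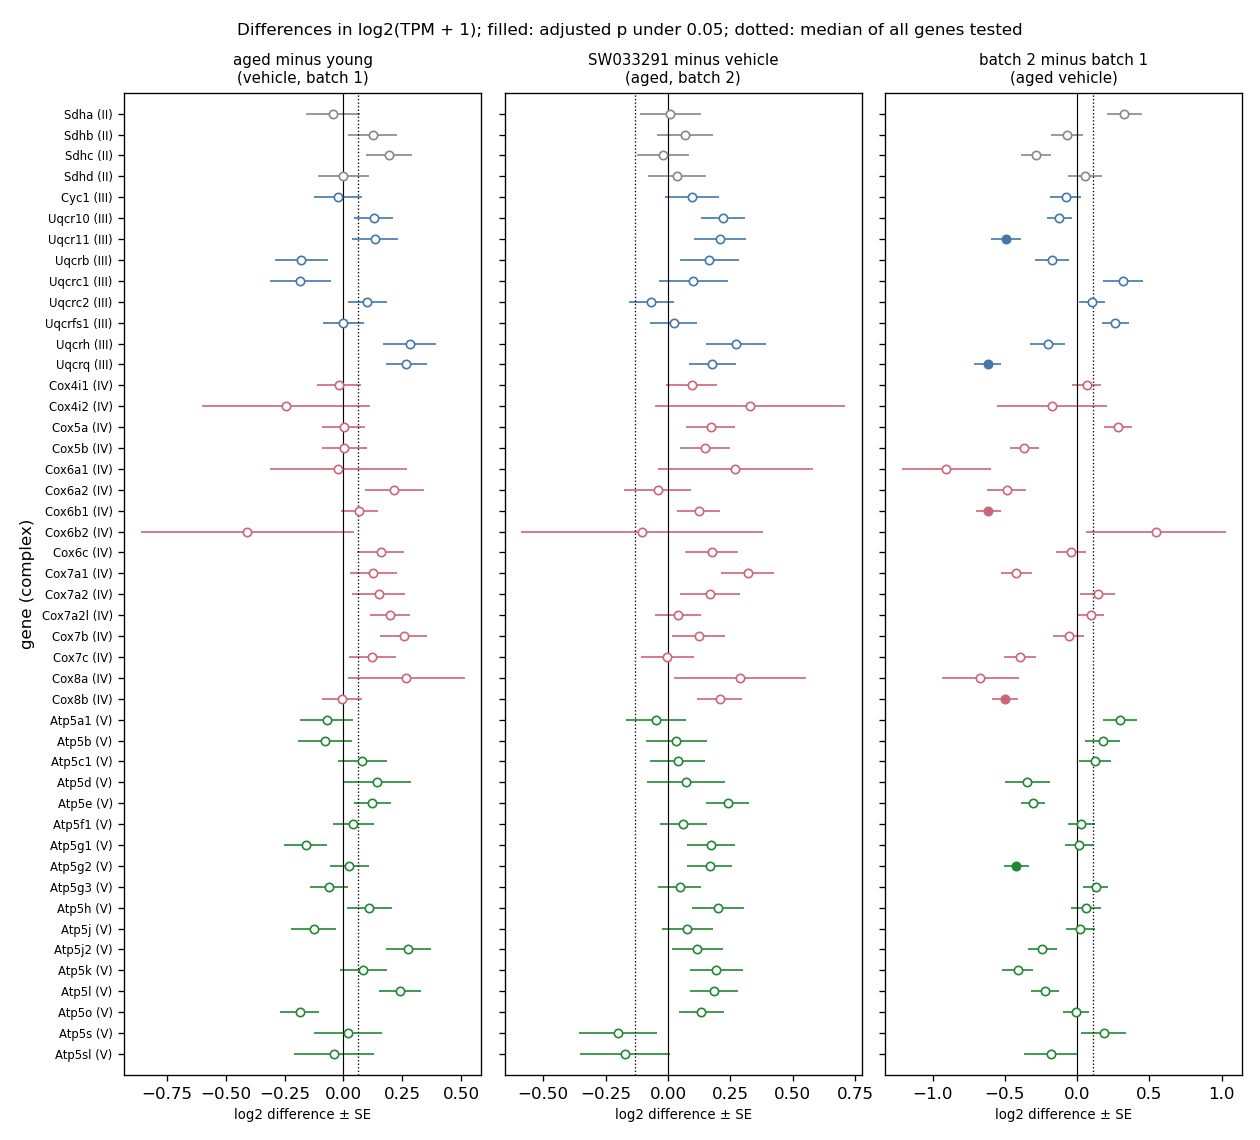
Log2 differences with their SE for each member (rows, with its complex) in the comparisons by age, by SW033291 and between batches; filled points have a limma adjusted p under 0.05 and the dotted line is the median of all genes tested. Filled points appear between batches only, for Uqcr11, Uqcrq, Cox6b1, Cox8b and Atp5g2.

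Aged vehicle muscle was sequenced in both batches, under the same labels of age and treatment. With limma, 5 of 46 members (10.9%) were called between batches, all lower in batch 2, against 2.25% of all genes in either direction and 0.530% lower. Cox6b1, a complex IV subunit that faces the intermembrane space, had 1415, 1377 and 1269 TPM in batch 1 and 886, 822 and 943 TPM in batch 2. It was lower by a log2 difference of -0.62 (SE 0.085, limma adjusted p = 0.00677). Uqcrq had 1195, 1245 and 1287 TPM in batch 1 and 860, 787 and 780 TPM in batch 2 (log2 difference -0.62, SE 0.093, limma adjusted p = 0.00945). Cox8b had 2513, 2381 and 3002 TPM against 1770, 1862 and 1927 TPM (-0.50, SE 0.091, limma adjusted p = 0.0184). Atp5g2 and Uqcr11 were lower by log2 differences of -0.42 and -0.49 (limma adjusted p = 0.0313 and 0.0315). Near-identical pseudogene transcripts, 2 for each of this last pair, make their counting uncertain.

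The other members named by rule did not pass: Cox7a1 had a log2 difference of -0.42 (limma adjusted p = 0.0571), Atp5k -0.41, Cox7c -0.40, Cox6a2 -0.49 and Cox5b -0.36. Groups did not overlap for 16 members that were lower in batch 2 (34.8%, against 4.64% of all genes) and 3 that were higher, Uqcrfs1, Cox5a and Atp5g3 (6.52% against 11.9%). The count of 5 called members depended on single libraries. It was 11 without batch 1 replicate 4 (23.9%, against 13.8% of all genes) and 3 without batch 1 replicate 3 (6.52% against 1.56%). Without batch 1 replicate 2 it was 2 (4.35% against 0.152%). It was 2 without batch 2 replicate 2 (4.35%) and 1 without batch 2 replicate 3 (2.17%), each against 0.177%. The share of all genes called thus also moved with single libraries. At an unadjusted p under 0.05 there were 22 members (47.8%, against 18.1% of all genes), 17 of them lower. Log2 differences were positive for 19 members (41.3%, against 64.2% of all genes). The median was -0.07 over the members and 0.11 over all genes, and the members' median was 0.0024 under quantile normalization. Complex IV had the lowest median of the 4 complexes, -0.27, and complex V a median of 0.01.

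The differences between batches were also described by the coding length of the member. Of 29 members with a coding length under 500 nucleotides, 20 had a negative log2 difference in batch 2, with a median of -0.22. Of the 17 longer members, 7 were negative and 10 positive, with a median of 0.07, beside 0.11 for all genes tested. Other genes with a mean of at least 100 TPM had medians of -0.20 for 249 short genes and 0.09 for 791 long ones. With SW033291 the medians were 0.17 for short and 0.04 for long members, beside 0.03 and -0.09 for other genes. With age they were 0.12 and -0.02, beside 0.15 and 0.06. In single libraries, the median deviation of short members minus that of long ones was highest in aged vehicle batch 1 replicate 4 (0.366) and lowest in the vehicle libraries of batch 2 (-0.185, -0.257 and -0.120). Across the 46 members the Pearson correlation of log coding length with the log2 difference between batches was 0.589, as a description of genes that share libraries. The part of coding length in the differences was not tested.

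**Figure D5:**
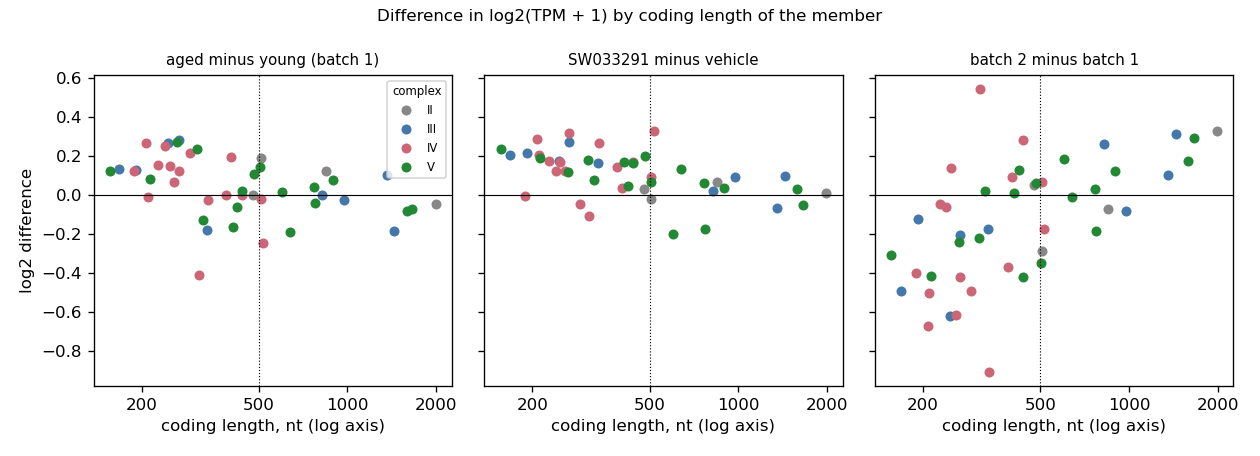
Log2 difference of each member (vertical axis) against its coding length in nucleotides (log axis), coloured by complex, in the 3 comparisons; the dotted line marks 500 nucleotides. Between batches, 20 of the 29 members left of the line lie below 0.

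Genes that serve these complexes but fall outside the naming rule were counted from lists. Of 33 tested assembly factors of complexes II to V, none was called with age or SW033291. Between batches 1 was higher, Lrpprc (log2 difference 0.63), which stabilises mitochondrial messenger RNAs. All genes called between batches made up 2.25%, and 0.530% were lower. Another 2 factors were lower, Uqcc2, an assembly factor of complex III (-0.65), and Coa3, one of complex IV (-0.45). Of 13 tested subunits and partners that the names missed, none was called in any comparison. Of 36 subunits of complex I, the entry point of electrons from NADH, none was called with age or SW033291 and 5 were lower between batches: Ndufa3, Ndufb2, Ndufb4, Ndufb6 and Ndufc2, with log2 differences of -0.46 to -0.60, again against 0.530% of all genes. With SW033291, 31 of the 36 complex I genes had positive log2 differences, against 28.9% of all genes, and a median of 0.10. Of the 13 subunits and partners, 9 were positive and 4 negative (median 0.09). The 33 assembly factors went the other way, with 12 positive, 21 negative and a median of -0.08, beside -0.13 for all genes.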

How the data were processed

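RNA of whole quadriceps lysates was sequenced in 13 libraries. The submitters' processing notes name the build mm9 and the tools STAR, RSEM, DESeq and DESeq2; no version is given in the sources used here. As TPM, the authors deposited values of 24015 genes. The authors' deposited tables of comparisons hold, per the file headers, a log2 fold change with its SE, a p-value, a test statistic (a score) and a mean of normalised counts (a signal). Gene names in the TPM table did not belong to their rows: 27 names turned into dates were restored, and names were sorted in byte order. The log2 differences of SW033291 then had a Pearson correlation of 0.928 with the authors' deposited table across 6371 genes, and of -0.012 as deposited. Names moved by 1 place gave 0.087 and 0.091.

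Values were analysed as log2(TPM + 1), which understates changes of low genes. Genes at 1 TPM or more in 3 libraries (11876) entered a linear model of 4 groups in limma 3.58.1 (R 4.3.3), with a variance trend and Benjamini-Hochberg adjustment, threshold 0.05; the model was tested on simulated data. In each comparison every member past the threshold was named, and where fewer than 10 passed, the lowest unadjusted p filled the list to 10. A fixed set of subunits was given by level. Members and lists were chosen with earlier results of these data known. Isoform ratios were tested by exact permutation over libraries. Summed shares of TPM were not tested, although a test had been planned. Coding lengths came from GENCODE M21, and pseudogene copies from BLAST 2.17.0 (95% identity over 150 nucleotides), found for 14 members. The counting of all 14 is uncertain, and the most copies were 8 for Atp5l, 4 for Atp5h and 3 each for Uqcrb and Cox7c. Promoters are RefSeq windows on GRCm38.p6. Alternatives were other pseudocounts, filters, scalings, sets of libraries and the replicate block.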

Additional observations from a re-analysis of the deposited data

Results flagged for a closer look

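Among the 4 young libraries, 51 values (the TPM of each member and the shares by complex) were searched for a library far from the others, and 4 were found, where chance gives about 1 in 20. Cox4i1 had 1737 TPM in young replicate 1, against 1489 to 1514 in the others. Cox6c had 1579 TPM in replicate 4, against 1538 to 1544. Cox7a1 had 1551 TPM in replicate 5, against 1416 to 1432, and Cox7b had 535 TPM in replicate 3, against 507 to 510. A different young library stood apart in each case.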

How the results depend on the processing

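No member was called with SW033291 under any of 13 alternatives, where 0% to 0.0337% of all genes were called. With age none was called under 15, where 0.0926% to 0.775% of all genes were called. At such low shares, the lack of calls says little about the members. The exception in the age comparison was the aged vehicle of batch 2 in place of batch 1, with 10 calls (21.7%, against 14.1% of all genes). With that group the members' median minus that of all genes was -0.149 in place of -0.0075, the share difference -0.244 percentage points in place of 0.212, and Uqcrq, Sdhc and Cox6a2 reversed to -0.352, -0.0935 and -0.272. The 5 calls between batches (2.25% of all genes called) were 8 under median-of-ratios scaling (1.21%), 2 under quantile normalization (0.825%) and 2 without a variance trend (0.943%). With only both groups in the fit there were 0, where 0.00842% of all genes were called. In that limma fit 16 members had an unadjusted p under 0.05, and the share of all genes at that p was not computed. Leaving out single libraries gave 1 to 11, where 0.152% to 13.8% of all genes were called. Leaving out the 20 most abundant other genes gave share differences of -0.187 with age, 0.892 with SW033291 and -0.710 between batches, in place of 0.212, 0.384 and -0.456. Medians minus that of all genes were 0.103 with SW033291 under quantile normalization, in place of 0.252, and -0.092 without a filter and -0.0084 under quantile normalization between batches, in place of -0.183. With the replicate number as a replicate block, 0 members were called with age (0.0926% of all genes) and 1 between batches (Cox6a1, beside 0.589% of all genes). The labels do not tie the numbers to animals, and deviations of same-numbered libraries had correlations of 0.171 and 0.040 (age) and -0.147 and -0.060 (batch), so they were not taken as pairs. The cause of these shifts was not tested. TPM give no counting error, so depth limits of single libraries cannot be stated. In the authors' deposited table of SW033291 against vehicle, mean normalised counts of members ran from 1.62 for Cox6b2 to 11142 for Atp5b. There Cox4i2 had 6.41 and Cox6a1 48.5.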
